A study of Mus musculus with 3 samples.

Results

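The genes described are 50 mouse genes of the semaphorins, their plexin and neuropilin receptors, the ephrins and the Eph receptors. The list does not hold every gene of these families, and family counts below cover the listed genes only. They were chosen by gene name, and all 50 were found among the 27040 gene identifiers shared by the 3 count matrices of the series. They comprise 20 semaphorins, 9 plexins, 2 neuropilins, 8 ephrins and 11 Eph receptors. Single cells from the dissociated pulp and periodontium of mandibular molars had been sorted for fluorescent reporters, with 1 library per group. The P25 library came from Col1a1-GFP; Cxcl12-creER; R26R(tdTomato/+) mice at age P25 and held cells carrying GFP, tdTomato or both. The Cxcl12-GFP P6 library came from Cxcl12-GFP/+ mice at age P6 and held GFP+ cells. The Cxcl12-creER P6 library came from Cxcl12-creER; R26R(tdTomato/+) mice at age P6 and held tdTomato+ cells. In the creER mice a tamoxifen-dependent recombinase driven by Cxcl12, a chemokine gene of stromal cells, switches on tdTomato in a cell and its descendants, and Col1a1-GFP reports a type I collagen gene. The time of tamoxifen and the number of mice per library do not appear in the labels used here. The sorts decide which cells are present, so none of the libraries is a census of the molar.

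Semaphorins and ephrins are guidance cues first studied in growing axons and vessels, and later in bone and tooth innervation. Class 3 semaphorins are secreted and mostly act through a complex of a neuropilin, which binds the ligand, and a plexin, which signals, whereas the membrane-bound classes bind plexins directly. Ephrins stay on the cell surface, the A group by a lipid anchor and the B group by a transmembrane segment, and bind Eph receptor tyrosine kinases on neighbouring cells, so that both cells can receive a signal.

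The deposited matrices held 6693 barcodes for P25, 7528 for Cxcl12-GFP P6 and 1691 for Cxcl12-creER P6, and filtering left 5401, 7065 and 1121 cells. These cells had a median of 14771, 8141 and 1464 unique molecular identifiers (UMIs) in the same order of libraries. Clusters were formed in each library without the 50 genes and named from marker lists, and a name ending in "-like" is used throughout to mark this. At P25 the classes used most were odontoblast-like (182 cells, cluster 12), pulp-like (758 cells, clusters 3, 6 and 16), osteoblast or cementoblast-like (727 cells, clusters 5, 10, 14 and 21) and ligament-like (1398 cells, clusters 0, 1, 9 and 13). In Cxcl12-GFP P6 they were papilla or pulp-like (1891 cells) and follicle or ligament-like (1321 cells), here called pulp-like and ligament-like. No name was given to 24.5% of P25 cells, 30.5% of Cxcl12-GFP P6 cells and 45.6% of Cxcl12-creER P6 cells. Barcodes shared between libraries numbered 0 to 5. The first 8 bases of 21% of Cxcl12-GFP P6 barcodes also begin a P25 barcode, against 82.3% for Cxcl12-creER P6. The labels give 1 chemistry for all 3 libraries, and the part of this difference in comparisons with Cxcl12-GFP P6 was not tested.

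Levels of defining markers in the named classes are given in CPM, the summed counts of a gene per 1000000 UMIs of a class. The same marker lists named the clusters, so these levels describe the classes and do not test their names. Dspp, the dentin matrix gene that defines odontoblasts, had 878 CPM in odontoblast-like cells, 6.67 CPM in pulp-like cells and 11.4 CPM in osteoblast-like cells at P25. The odontoblast-like class also held bone transcripts, with a summed level of 36960 CPM over 8 osteoblast markers against 2473 CPM over its own 6, and Bglap, which encodes osteocalcin, had 15883 CPM there, 71614 CPM in osteoblast-like cells and 273 CPM in macrophage-like cells. Ligament-like cells had 14347 CPM of Postn, which encodes periostin, and the ligament marker list summed to 332 CPM in pulp-like cells and 21950 CPM in ligament-like cells. In Cxcl12-GFP P6 the pulp list summed to less in pulp-like than in ligament-like cells, 1654 against 4840 CPM, with Igfbp5 at 754 against 4691 CPM, while 7 of its 9 markers were higher in pulp-like cells. Cluster 8 of Cxcl12-GFP P6 was led by the collagenase gene Mmp13 and rests on a single ligament marker among its 10 leading genes.

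Every member was accounted for in each library. A level of at least 50 CPM in some named class of at least 50 cells was reached by 34 of the 50 genes, with 27 at P25, 17 among Cxcl12-GFP P6 classes and 18 among Cxcl12-creER P6 classes. Under 10 CPM in every such class were 2 genes at P25, Plxna3 and Sema5b, and 10 in each P6 library. Sema5b, a membrane semaphorin, was under it in all 3 libraries, at 1.89 CPM or less, and no other gene was. Of the 27 genes at P25, 10 were highest in endothelial-like cells and 4 in Schwann-like cells. The tooth and bone mesenchyme held the highest level of a smaller number each, with 3 in osteoblast-like, 2 in ligament-like, 2 in odontoblast-like and 1 in pulp-like cells. Connective tissue fibroblast-like cells had 2, and lining epithelium-like, macrophage-like and neutrophil-like cells had 1 each. The same count was not made over all genes, so these numbers do not show whether the members differ from other genes in this.

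**Figure D1:**
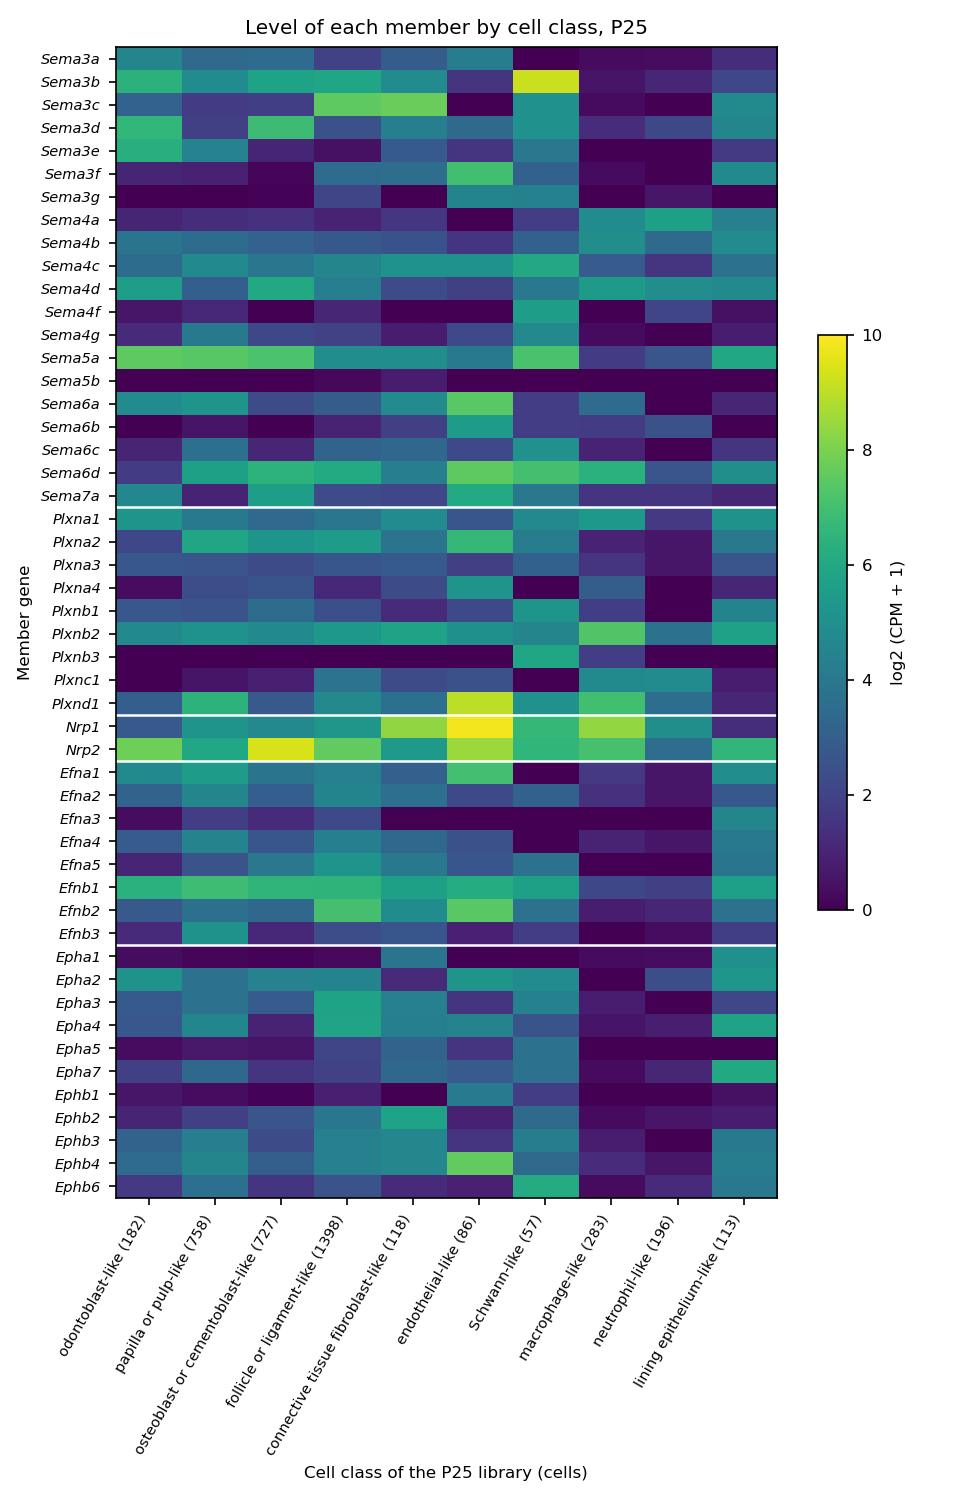
Level of each of the 50 genes (rows) in the 10 named P25 classes of at least 50 cells (columns), as log2 (CPM + 1) by colour, with white lines between semaphorins, plexins, neuropilins, ephrins and Eph receptors. The endothelial-like column holds the highest level of 10 of the 27 members that reach 50 CPM, a count not made over all genes. Rows such as Sema3c, Sema3d and Sema3e are bright in different sets of columns.

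Sema3d and Nrp2, high in osteoblast-like and odontoblast-like cells, and Sema3c and Efnb2, high in ligament-like cells, are 4 of the members described below. Their RefSeq promoter windows on GRCm38.p6 are shown so that the sequence can be read beside the levels, each from 250 bases before to 50 after the annotated start, written 5′ to 3′ on the gene's own strand. Sema3d lies at chr5:12382916-12383215 (+), Nrp2 at chr1:62703067-62703366 (+), Sema3c at chr5:17574566-17574865 (+) and Efnb2 at chr8:8661193-8661492 (-). The RefSeq start used for the windows can differ from the start in the GENCODE gene coordinates given below, as for Sema3d and Sema3c. Capitals mark matches on either strand to TGTGGT (RUNX), CANNTG (E-box, bound by basic helix-loop-helix factors) and CTTTGAT (TCF/LEF), and no marked bases belonged to more than 1 motif.
Sema3d: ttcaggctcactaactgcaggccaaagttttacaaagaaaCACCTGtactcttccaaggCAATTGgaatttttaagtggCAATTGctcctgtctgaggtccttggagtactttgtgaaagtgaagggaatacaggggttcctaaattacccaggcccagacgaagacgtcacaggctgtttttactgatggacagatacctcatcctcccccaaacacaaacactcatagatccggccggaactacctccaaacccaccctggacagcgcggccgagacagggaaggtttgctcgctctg
Nrp2: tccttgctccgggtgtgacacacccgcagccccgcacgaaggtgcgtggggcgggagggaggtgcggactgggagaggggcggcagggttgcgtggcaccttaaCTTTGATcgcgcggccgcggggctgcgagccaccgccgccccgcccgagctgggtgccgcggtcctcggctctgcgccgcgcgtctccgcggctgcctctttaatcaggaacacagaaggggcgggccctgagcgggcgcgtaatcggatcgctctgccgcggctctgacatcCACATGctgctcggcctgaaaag
Sema3c: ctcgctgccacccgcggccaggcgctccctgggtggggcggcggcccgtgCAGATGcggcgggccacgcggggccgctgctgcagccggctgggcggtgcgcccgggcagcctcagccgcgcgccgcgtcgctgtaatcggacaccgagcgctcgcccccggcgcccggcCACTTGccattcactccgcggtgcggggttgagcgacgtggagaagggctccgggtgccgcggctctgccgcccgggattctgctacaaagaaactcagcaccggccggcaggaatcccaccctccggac
Efnb2: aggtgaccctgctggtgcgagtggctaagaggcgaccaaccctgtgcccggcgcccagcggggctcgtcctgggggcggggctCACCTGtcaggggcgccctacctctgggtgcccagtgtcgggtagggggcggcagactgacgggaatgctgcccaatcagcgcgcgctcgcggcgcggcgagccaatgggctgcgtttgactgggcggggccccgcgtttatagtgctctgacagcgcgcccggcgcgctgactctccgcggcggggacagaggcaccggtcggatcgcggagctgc
The E-box matched 3 times in the Sema3d window, 2 times in that of Sema3c and 1 time each in those of Nrp2 and Efnb2, and 72.3% of all 32851 RefSeq promoter windows hold it. A TCF/LEF match stood in the Nrp2 window alone of the 4, and 3.73% of all windows hold one. The RUNX letters matched in none of the 4 windows, and 16.8% of all windows hold them. Of the 50 genes, 44 had a promoter entry, with 58 windows in all, of which 28 held the E-box, 8 the RUNX letters and 1 the TCF/LEF letters.

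The levels are given first within the P25 library, by gene family. Sema3d, a secreted class 3 semaphorin (chr5:12383385-12588948, plus strand, GRCm38), had 98.1 CPM in odontoblast-like cells (95% Poisson interval 88.3 to 109), 2.72 CPM in pulp-like cells, 114 CPM in osteoblast-like cells (108 to 119) and 4.57 CPM in ligament-like cells. It was high in both mineral-forming classes, whose intervals overlap, and far lower in pulp-like and ligament-like cells. Macrophage-like cells had 1.42 CPM. A Sema3d UMI was found in 68.1% of odontoblast-like cells, 2.77% of pulp-like cells, 52.8% of osteoblast-like cells and 6.08% of ligament-like cells, against 1.77% of macrophage-like cells. With cells thinned to 1000 UMIs, which left out 14 osteoblast-like cells and 1 ligament-like cell that had fewer, the shares were 7.69%, 1.06%, 7.85%, 0.286% and 0% in the same order of classes. Median depth was 18850, 9968, 18230, 16920 and 13870 UMIs in these classes. All intervals and shares cover counting error only, since each class comes from 1 library.

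Sema3c, a secreted semaphorin that binds both neuropilins (chr5:17574281-17730268, plus strand), had 2.35 CPM in pulp-like cells, 2.65 CPM in osteoblast-like cells, 183 CPM in ligament-like cells (178 to 189) and 212 CPM in connective tissue fibroblast-like cells (189 to 237). The intervals of the high classes did not overlap, and every other named class of at least 50 cells stayed at 32.6 CPM or less, with 0.237 CPM in macrophage-like cells. A Sema3c UMI was found in 1.32% of pulp-like cells and 51.4% of ligament-like cells, against 0.353% of macrophage-like cells. After thinning, the shares were 0.132%, 12.9% and 0%. Sema3e, which binds plexin D1 without a neuropilin (chr5:14025276-14256689, plus strand), had 78.2 CPM in odontoblast-like cells (69.5 to 87.7), 20.6 CPM in pulp-like cells (17.6 to 24.0) and 0.361 CPM in ligament-like cells. It was thus a gene of the pulp side at P25, graded from odontoblast-like to pulp-like cells with no overlap of the intervals. A Sema3e UMI was found in 64.3% of odontoblast-like cells, 15% of pulp-like cells and 0.644% of ligament-like cells, and in none of the macrophage-like cells.

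Sema5a, a membrane semaphorin with thrombospondin repeats (chr15:32244810-32696341, plus strand), was shared by the pulp and the mineral-forming classes. It had 181 CPM in odontoblast-like cells (167 to 195) and 168 CPM in pulp-like cells (159 to 177), whose intervals overlap. Osteoblast-like cells had 143 CPM of Sema5a and ligament-like cells 29.2 CPM, against 2.37 CPM in macrophage-like cells. Among the receptors, Nrp2, a neuropilin for class 3 semaphorins and a co-receptor for VEGF-C (chr1:62703285-62818695, plus strand), had 674 CPM in osteoblast-like cells (661 to 688) and 357 CPM in endothelial-like cells (323 to 394). Lower levels of Nrp2 stood in odontoblast-like cells at 222 CPM, pulp-like cells at 62.0 CPM and ligament-like cells at 192 CPM. An Nrp2 UMI was found in 84.6% of odontoblast-like, 24.9% of pulp-like, 85.3% of osteoblast-like and 84.8% of ligament-like cells. Thinned to equal depth these shares were 15.9%, 4.62%, 42.5% and 18.0%, so that osteoblast-like cells stood above the other classes once depth was equal.

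Efnb2, the B-type ephrin that marks arterial endothelium and binds EphB4, had 11.9 CPM in pulp-like cells, 9.49 CPM in osteoblast-like cells and 133 CPM in ligament-like cells (129 to 138). The class with the highest level of Efnb2 was endothelial-like, at 173 CPM (149 to 199), and macrophage-like cells had 0.711 CPM. An Efnb2 UMI was found in 10.0% of pulp-like cells and 68.3% of ligament-like cells, against 1.06% of macrophage-like cells. The thinned shares were 0.792%, 10.8% and 0.707%. Epha3, a receptor for A-type ephrins (chr16:63543534-63864175, minus strand), was highest in ligament-like cells at 55.3 CPM, followed by Schwann-like cells at 20.05 CPM. Epha4, an Eph receptor that accepts ephrins of both groups, had 55.6 CPM in ligament-like and 53.6 CPM in lining epithelium-like cells, with overlapping intervals. Efnb1, the B-type ephrin mutated in human craniofrontonasal syndrome, was spread over the mesenchyme, with 118 CPM in pulp-like cells (111 to 126), 92.8 CPM in osteoblast-like cells and 90.0 CPM in ligament-like cells.

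**Figure D2:**
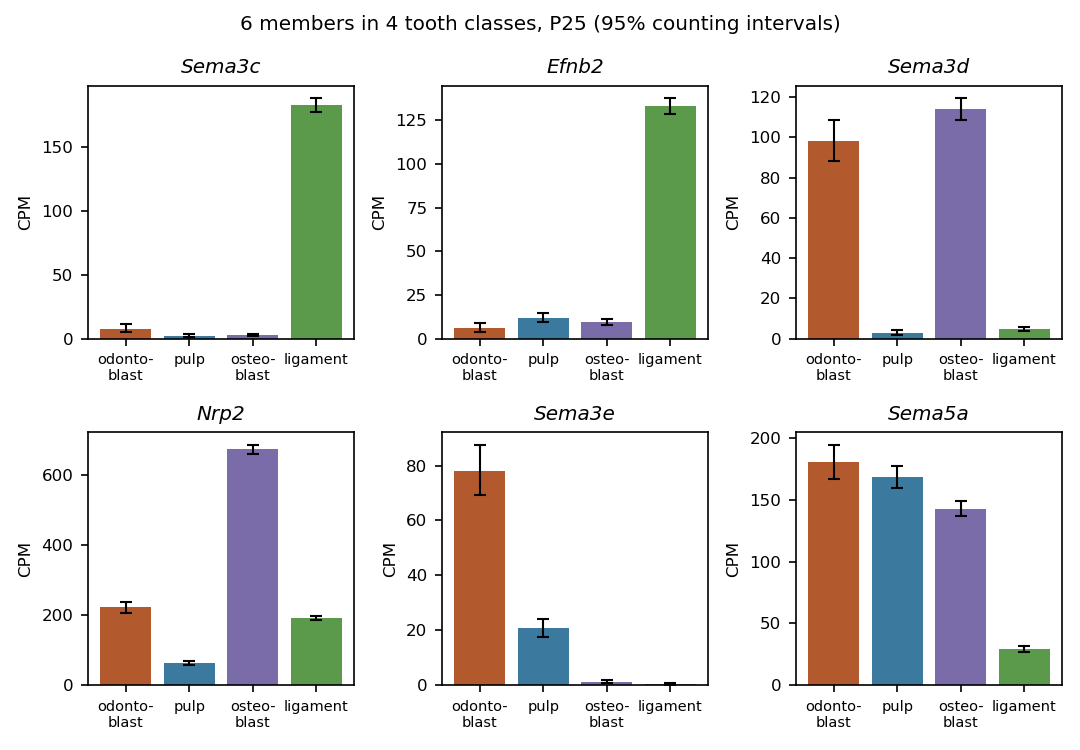
CPM (vertical axes, from 0) of Sema3c, Efnb2, Sema3d, Nrp2, Sema3e and Sema5a in 4 P25 classes, with bars for the level of the summed counts and whiskers for the exact 95% Poisson interval, which covers counting error only. Sema3c and Efnb2 stand in ligament-like cells, Sema3d in odontoblast-like and osteoblast-like cells, and Sema3e in odontoblast-like and pulp-like cells.

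Outside the tooth mesenchyme, the endothelial-like class of 86 P25 cells was highest for both receptor and ligand genes. It had 1144 CPM of the endothelial cadherin Cdh5. Nrp1, the neuropilin shared by class 3 semaphorins and VEGF-A, had 905 CPM there (849 to 963) and 329 CPM in macrophage-like cells. Plxnd1, the plexin D1 receptor of Sema3e, had 518 CPM in endothelial-like cells and 124 CPM in macrophage-like cells. Ephb4, the venous receptor of ephrin-B2, had 192 CPM against 23.6 CPM in connective tissue fibroblast-like cells. Sema6a, a transmembrane ligand of A-type plexins, had 173 CPM in endothelial-like cells against 35.2 CPM in pulp-like cells, and Efna1, the ephrin-A1 gene, had 126 CPM against 44.2 CPM. Sema3f, a ligand of neuropilin-2, had 124 CPM there. The endothelial-like class was also the highest for Sema7a, a lipid-anchored semaphorin, at 68.2 CPM against 46.7 CPM in osteoblast-like cells, and for Plxna2, an A-type plexin, at 100 CPM against 57.2 CPM in pulp-like cells. Sema6d, a ligand of plexin A1, had 183 CPM in endothelial-like and 130 CPM in Schwann-like cells, with overlapping intervals. The sort was for Cxcl12 and Col1a1 reporters, so these cells are not a sample of the vessels of the molar at large.

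Cxcl12-GFP P6 had an endothelial-like class of 77 cells, in which 9 of that library's 17 members over 50 CPM were highest. This too was not counted over all genes. There Nrp1 had 581 CPM (526 to 639), Efna1 466 CPM (417 to 519) and Efnb2 249 CPM (214 to 288). Plxnd1 had 152 CPM, Ephb4 136 CPM and Sema6a 105 CPM in the same class. Sema3g, a secreted semaphorin known from arterial endothelium, had 21.8 CPM in the P25 endothelial-like class (14.0 to 32.5) and 126 CPM in that of Cxcl12-GFP P6 (101 to 155). In Schwann-like cells at P25 the secreted semaphorin Sema3b had 581 CPM (509 to 661), against 85.2 CPM in odontoblast-like cells, the next class. Ephb6, an Eph receptor without kinase activity, had 70.2 CPM and the plexin Plxnb3 60.1 CPM in Schwann-like cells. Sema4c, a ligand of plexin B2, had 65.1 CPM in Schwann-like and 34.5 CPM in endothelial-like cells, with overlapping intervals. Plxnb2 was highest in macrophage-like cells at 157 CPM and Sema4a, a transmembrane semaphorin of immune cells, in neutrophil-like cells at 50.3 CPM. Ephb2 was highest in connective tissue fibroblast-like cells at 55.3 CPM, and Epha7 in lining epithelium-like cells at 65.6 CPM.

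The P6 libraries held further highs in their own classes. In Cxcl12-GFP P6, Sema7a had 118 CPM and Sema4c 50.4 CPM in endothelial-like cells. Mural-like cells had 39.7 CPM of Sema4c, with overlapping intervals. Col9a1-high cells had the highest Efnb1, at 173 CPM against 125 CPM in pulp-like cells, and the highest Efnb3, at 66.5 CPM against 54.5 CPM. Sema3b was highest in pulp-like cells at 59.3 CPM, with 51.0 CPM in ligament-like cells, and Plxnb2 in mural-like cells at 62.4 CPM. In the Cxcl12-creER P6 library the class of connective tissue fibroblast-like cells held the highest Sema3c at 209 CPM, Nrp1 at 137 CPM, Plxnb2 at 117 CPM and Ephb2 at 89.2 CPM. The Plxnb2 interval overlapped that of osteoblast-like cells, at 61.2 CPM. Enamel epithelium-like cells held the highest Sema5a at 176 CPM, Plxna4, an A-type plexin, at 83.4 CPM and the membrane semaphorin Sema4b at 54.5 CPM. Osteoblast-like cells came next in Sema5a at 127 CPM and Sema4b at 33.0 CPM, with overlapping intervals for both genes. Osteoblast-like cells were highest for Efnb1 at 104 CPM and Plxna1 at 51.8 CPM. Both intervals overlapped that of the next class, pulp-like at 86.6 CPM for Efnb1 and connective tissue fibroblast-like at 24.0 CPM for Plxna1. Pulp-like and ligament-like cells of that library had overlapping intervals in Efna2 (61.9 and 46.1 CPM), Efnb3 (55.7 and 40.4 CPM) and Sema6a (49.5 and 51.7 CPM).

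At P25, pulp-like cells were compared with ligament-like cells, the soft tissue inside the tooth against the fibres that hold it. A gene was counted as past 2-fold on the log2 ratio of CPM with 1 CPM added to both, among genes with a mean of at least 10 CPM over the pair of classes and at least 20 UMIs. Of the 26 members that passed this filter, 14 were past 2-fold, 6 higher and 8 lower in pulp-like cells, which is 53.8% of them. Over all 8275 genes tested the share was 19.8%, with 13.0% higher and 6.89% lower. A member almost absent from 1 class can pass the filter through the other, so these shares describe the genes that passed and not all 50. The median log2 ratio of the 26 was 0.02, against 0.29 over all genes tested. The count depends on the processing: with doublets kept 6 of 26 members were past 2-fold (23.1%, against 12.1% of all genes), and with the best marker list alone 7 of 26 (26.9%, against 10.5%). The semaphorins split evenly, with 3 of 8 higher and 3 lower, and so did the ephrins, with 2 of 7 higher and 2 lower, whereas of 5 Eph receptors 2 were lower and none was higher.

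On the higher side, the secreted semaphorin Sema3e had 20.6 CPM in pulp-like cells and 0.361 CPM in ligament-like cells, 57.1-fold higher (95% interval 29.4 to 127). Efnb3, a B-type ephrin of the neural midline, had 33.2 CPM against 4.21 CPM, 7.89-fold higher (6.27 to 9.98). Sema5a had 168 CPM in pulp-like and 29.2 CPM in ligament-like cells, 5.76-fold higher (5.26 to 6.31), past 2-fold in 15 of 17 alternatives. Thus the pulp side carried both a plexin D1 ligand and that receptor: Plxnd1 had 86.5 CPM against 25.1 CPM, 3.44-fold higher (3.09 to 3.84). Efna1 had 44.2 CPM in pulp-like cells against 19.2 CPM in ligament-like cells, 2.30-fold higher (2.0 to 2.64), past 2-fold in 12 of 17 alternatives. Sema6a, with 35.2 CPM against 6.82 CPM (5.16-fold higher, 4.25 to 6.28), came from a single pulp-like cluster and had a log2 ratio of -1.50 without it.

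On the lower side, Sema3c had 2.35 CPM in pulp-like cells and 183 CPM in ligament-like cells, 78.1-fold lower (49.9 to 130). Efnb2 had 11.9 CPM against 133 CPM, 11.2-fold lower (9.16 to 13.9). Both stayed past 2-fold under each of the 17 alternatives tried, with log2 ratios of -6.67 to -3.28 for Sema3c and -3.67 to -1.17 for Efnb2. Efna5, which encodes ephrin-A5, a ligand of EphA3, had 4.94 CPM in pulp-like and 34.7 CPM in ligament-like cells, 7.03-fold lower (5.12 to 9.91). Epha3 itself had 12.7 CPM against 55.3 CPM, 4.35-fold lower (3.56 to 5.36), and Epha4 had 23.1 CPM against 55.6 CPM, 2.41-fold lower, past 2-fold in 12 of 17 alternatives. The A-type pair of ephrin-A5 and EphA3 was therefore lower on the pulp side together, but Epha3 depends on the naming of clusters and had log2 ratios of 0.17 to 0.31 under 3 alternatives. Nrp2 had 62.0 CPM in pulp-like cells and 192 CPM in ligament-like cells, 3.09-fold lower (2.82 to 3.40), past 2-fold in 13 of 17 alternatives and at a log2 ratio of -0.45 in the weakest. Sema4d, a membrane semaphorin that binds plexin B1 and restrains bone formation in mice, had 7.04 CPM against 18.2 CPM, 2.58-fold lower, past 2-fold in 14 of the 17. Sema3b, a secreted semaphorin, had 27.2 CPM against 59.0 CPM (2.17-fold lower, 1.88 to 2.51), and without ligament-like cluster 0 its log2 ratio was 0.13. Endothelial markers summed to 5.19 CPM in pulp-like and 3.61 CPM in ligament-like cells. Connective tissue fibroblast markers moved with this comparison, with a sum of 14.7 CPM in pulp-like and 279 CPM in ligament-like cells and 1 of 8 higher in pulp-like cells, and Sema3c is highest in connective tissue fibroblast-like cells. Osteoclast markers did too, with 197 and 1145 CPM in pulp-like and ligament-like cells, and so did bone marrow stromal markers with 66.1 and 314 CPM and osteoblast markers with 2827 and 5932 CPM. The part of these lists in the result was not tested.

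The partners of these genes from the other guidance lists differed in direction by list. Of the 10 Slit, Robo and netrin genes that passed the filter, 2 were higher and 2 lower in pulp-like cells. Flrt3, whose protein binds Unc5 receptors, had 140 CPM in pulp-like and 11.3 CPM in ligament-like cells, and Unc5b, a netrin receptor, had 153 CPM against 31.6 CPM. Ntn1, which encodes netrin-1, had 1.73 CPM against 29.2 CPM, and Slit2, a Robo ligand, 5.19 CPM against 35.9 CPM. Among 13 semaphorin partners none was higher and 1 was lower, the integrin subunit gene Itgb1 at 313 CPM in pulp-like and 858 CPM in ligament-like cells. Of 15 Eph and ephrin partners 6 were higher and none was lower, with a median log2 ratio of 0.82 against 0.29 over all genes tested. They include Vav3, a guanine nucleotide exchange factor, at 31.7 CPM in pulp-like and 0.920 CPM in ligament-like cells, and Adam10, a protease that sheds ephrins, at 197 CPM against 46.8 CPM.

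The classes were not uniform. Within ligament-like cells Sema3c was concentrated in cluster 0, with 333 CPM there and 20.7 to 55.3 CPM in clusters 1, 9 and 13. Cluster 0 held 40.0% of ligament-like cells and 50.3% of their UMIs, and Sema3c stood among its 10 leading genes beside Aspn, Tnn and Postn although it was not used for clustering. Efnb2 followed the same order more weakly, with 186 CPM in cluster 0 and 54.3 to 88.2 CPM in the others. Efna5 stood elsewhere, at 166 CPM in cluster 13, which was led by Ostn and Gdf10, against 11.7 to 30.4 CPM. Nrp2 was highest in cluster 9 at 325 CPM, against 152 to 217 CPM, and Sema6d, a ligand of plexin A1, in cluster 1 at 113 CPM, against 9.22 to 75.0 CPM. Nrp1 also differed, with 82.7 CPM in cluster 1, 64.7 CPM in cluster 13, 19.97 CPM in cluster 9 and 13.8 CPM in cluster 0.

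Among pulp-like cells, cluster 16 stood apart in these genes. It held 16.5% of the cells, was named from the apical papilla list and was led by Coch, Pcp4, Aox3 and Tac1. Sema6a had 145 CPM in cluster 16 and 2.22 and 0.930 CPM in clusters 3 and 6. Nrp2 had 204 CPM there against 23.7 and 9.30 CPM, and Epha3 46.4 CPM against 1.97 and 3.26 CPM. Sema5a ran the other way, with 18.5 CPM in cluster 16 against 242 and 161 CPM, and so did Sema6d, with 1.58 CPM against 70.3 and 56.7 CPM. Plxnd1 had 13.2 CPM in cluster 16, 83.7 CPM in cluster 3 and 156 CPM in cluster 6. Sema3e differed less, with 14.8 CPM against 25.4 and 16.7 CPM. In osteoblast-like cells, cluster 5, led by the osteocyte-associated genes Mepe, Spp1, Dkk1 and Dmp1, had 38.4 CPM of Sema3d, against 146 and 165 CPM in clusters 10 and 14. Sema7a, a lipid-anchored semaphorin, was the reverse, with 113 CPM in cluster 5 against 14.9 and 14.6 CPM. Plxna2, an A-type plexin, had 90.8 CPM in cluster 5 against 10.0 and 3.71 CPM. Cluster 21 had a median of 1697 UMIs per cell and gave 1.27% of the osteoblast-like UMIs.

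**Figure D3:**
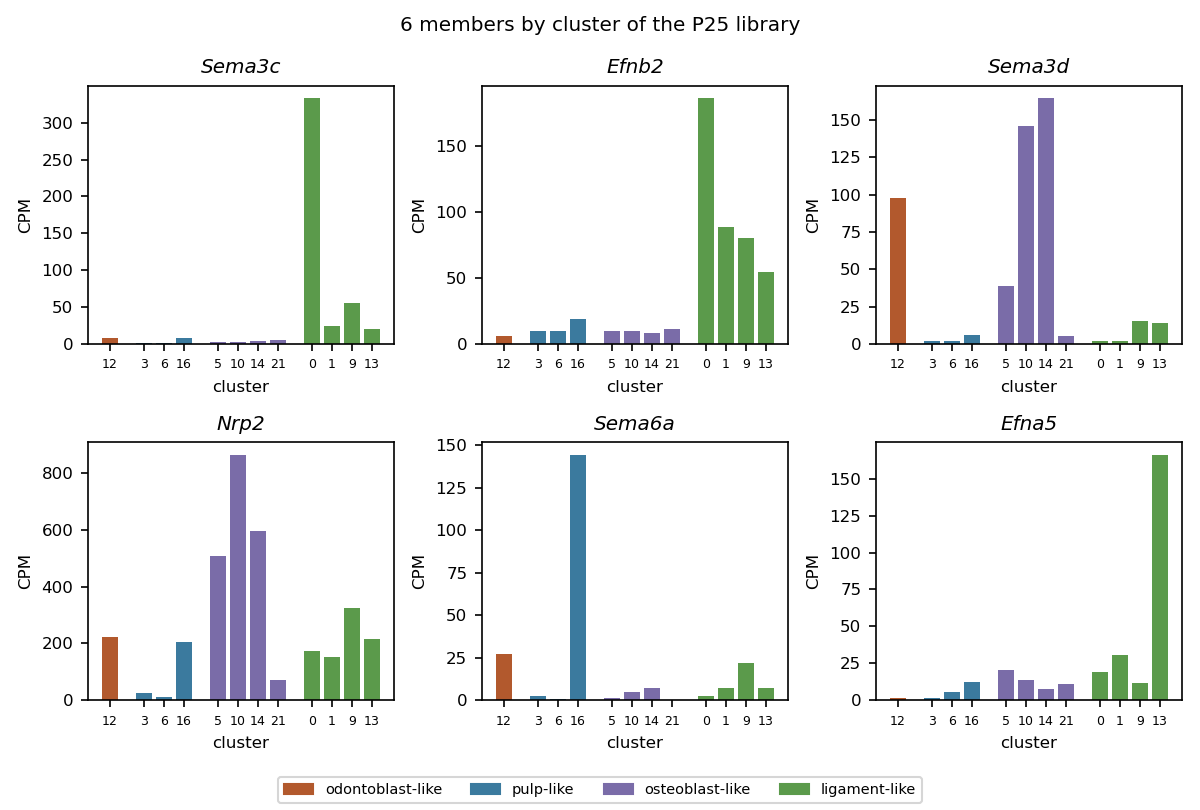
CPM (vertical axes, from 0) of Sema3c, Efnb2, Sema3d, Nrp2, Sema6a and Efna5 in each P25 cluster of the odontoblast-like, pulp-like, osteoblast-like and ligament-like classes (horizontal axis, by cluster number), 1 bar per cluster and no intervals drawn. Sema3c is carried mainly by ligament-like cluster 0 at 333 CPM, Sema6a by pulp-like cluster 16 at 145 CPM and Efna5 by ligament-like cluster 13 at 166 CPM.

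Odontoblast-like cells were then compared with pulp-like cells, the dentin-forming layer against the tissue it borders. Of 26 members that passed the filter, 20 were past 2-fold (76.9%), with 9 higher and 11 lower in odontoblast-like cells. Among all 8055 genes tested 23.9% were past 2-fold, 5.86% higher and 18.1% lower. The members' median log2 ratio was -0.43, against -0.37 over all genes tested. Semaphorins made up 6 of the 9 higher genes, with 6 of 11 tested semaphorins higher and 2 lower, whereas of 5 ephrins 3 were lower and none was higher. Centring on the median gene left 9 higher and 8 lower.

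Sema3d had 98.1 CPM in odontoblast-like cells and 2.72 CPM in pulp-like cells, 36.1-fold higher (23.5 to 58.3). Sema7a had 24.2 CPM against 0.988 CPM, 24.5-fold higher (11.9 to 58.4), and Sema4d 47.6 CPM against 7.04 CPM, 6.75-fold higher. Sema3e had 78.2 CPM in odontoblast-like and 20.6 CPM in pulp-like cells, 3.79-fold higher (3.12 to 4.61). These 4 semaphorins were past 2-fold under each of 12 alternatives. Nrp2 had 222 CPM against 62.0 CPM, 3.58-fold higher (3.20 to 4.01), and was past 2-fold in 9 of the 12. Sema3b had 85.2 CPM in odontoblast-like and 27.2 CPM in pulp-like cells, 3.13-fold higher. Sema3a, the secreted semaphorin that repels sensory axons, had 23.4 CPM against 9.88 CPM (2.37-fold higher, in 8 of 12 alternatives), and Epha2, the receptor of ephrin-A1, had 34.4 CPM against 12.4 CPM (2.78-fold higher). The plexin gene Plxna1 had 35.2 CPM against 15.4 CPM, 2.28-fold higher. Epha2 and Plxna1 were past 2-fold in 10 of the 12 alternatives and Sema3b in 11.

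On the lower side, Efnb3 had 1.34 CPM in odontoblast-like cells and 33.2 CPM in pulp-like cells, 24.7-fold lower (10.5 to 76.8). The receptor genes Plxnd1, Plxna2 and Nrp1 were lower with it. Plxnd1 had 6.99 CPM against 86.5 CPM, 12.4-fold lower (8.38 to 19.1), so the Sema3e ligand and its plexin were higher in opposite classes of the pulp side. Plxna2 had 3.49 CPM in odontoblast-like and 57.2 CPM in pulp-like cells, 16.4-fold lower (9.48 to 31.0), and Nrp1 had 5.91 CPM against 35.4 CPM, 6.00-fold lower (3.89 to 9.72). Sema6d had 2.42 CPM against 50.6 CPM (20.9-fold lower, 10.9 to 46.1), but its log2 ratio was 0.35 when the best marker list named each cluster with no minimum score. Epha4 had 5.64 CPM in odontoblast-like and 23.1 CPM in pulp-like cells, 4.09-fold lower. The A-type ephrin genes Efna4 (6.45 against 21.2 CPM, 3.29-fold) and Efna2 (8.06 against 23.3 CPM, 2.90-fold) were lower too. Sema4c had 10.7 CPM against 26.4 CPM and Ephb3 8.06 CPM against 18.5 CPM, past 2-fold in 7 and 8 of the 12 alternatives. Bone markers moved with this comparison, with sums of 36960 CPM in odontoblast-like and 2827 CPM in pulp-like cells and 7 of 8 markers higher, and their part in the result was not tested. Of the partner lists, Mical3, a plexin-associated oxidase, had 90.0 CPM against 16.7 CPM and Farp2, an exchange factor of plexin A signalling, 36.0 CPM against 6.92 CPM, while 3 of 8 Slit, Robo and netrin genes and 6 of 16 Eph and ephrin partners were lower, with 1 and 2 higher. Of 13 semaphorin partners 2 were higher and 2 lower.

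Osteoblast-like cells were compared with ligament-like cells, the bone or cementum side of the periodontium against its fibres. Of 25 members that passed the filter, 15 were past 2-fold (60%), 5 higher and 10 lower, while 16.5% of all 7409 genes tested were, 4.02% higher and 12.5% lower. The members' median log2 ratio was -0.57, against -0.22 over all genes tested. The families parted: 4 of 8 semaphorins were higher and 1 was lower, with a median log2 ratio of 1.09. None of 6 ephrins was higher and 4 were lower, with a median of -1.37, and none of 5 Eph receptors was higher and 4 were lower, with a median of -2.04. Sema3d had 114 CPM in osteoblast-like and 4.57 CPM in ligament-like cells, 24.9-fold higher (20.6 to 30.4). Sema7a had 46.7 CPM against 3.93 CPM, 11.9-fold higher (9.59 to 14.8). Sema5a had 143 CPM against 29.2 CPM (4.89-fold higher, 4.49 to 5.33, past 2-fold in 16 of 18 alternatives) and Sema4d 66.9 CPM against 18.2 CPM (3.68-fold higher, 3.29 to 4.13). The receptor gene Nrp2 had 674 CPM in osteoblast-like and 192 CPM in ligament-like cells, 3.51-fold higher (3.39 to 3.64).

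Lower in osteoblast-like cells was Sema3c, at 2.65 CPM against 183 CPM in ligament-like cells, 69.1-fold lower (50.3 to 97.8). Epha4 had 0.977 CPM against 55.6 CPM, 56.9-fold lower (33.8 to 104), and Epha3 6.49 CPM against 55.3 CPM, 8.52-fold lower (6.90 to 10.6). Efnb2 had 9.49 CPM in osteoblast-like and 133 CPM in ligament-like cells, 14.0-fold lower (11.8 to 16.8), and its receptor gene Ephb4 had 7.26 CPM against 19.7 CPM, 2.72-fold lower. Thus ligament-like cells had the higher level of both an EphA and an ephrin-B partner. Plxnd1 had 5.86 CPM against 25.1 CPM and Ephb3 3.98 CPM against 19.5 CPM, 4.28-fold and 4.89-fold lower. Efna4 (5.37 against 18.9 CPM) and Efna2 (6.84 against 21.6 CPM) were 3.52-fold and 3.16-fold lower. Efna5 had 14.5 CPM against 34.7 CPM, 2.39-fold lower, which rests on ligament-like cluster 13, without which its log2 ratio was -0.52. The partner gene Slit2 had 156 CPM in osteoblast-like and 35.9 CPM in ligament-like cells, and Ntn1 had 1.74 CPM against 29.2 CPM. In this comparison 3 of 10 Slit, Robo and netrin genes were higher and 3 lower, as were 2 and 4 of 14 semaphorin partners and 1 and 3 of 12 Eph and ephrin partners. Connective tissue fibroblast markers summed to 6.28 CPM in osteoblast-like and 279 CPM in ligament-like cells, with 0 of 8 higher. In the same order, bone marrow stromal markers summed to 25.0 and 314 CPM, mural markers to 56.9 and 320 CPM and osteoclast markers to 244.5 and 1145 CPM. Chondrocyte markers ran the other way, with 2256 and 112 CPM, as did odontoblast markers, with 1081 and 34.6 CPM. The part of these lists in the result was not tested.

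Comparing odontoblast-like with pulp-like cells and osteoblast-like with ligament-like cells shares no class, so both mineral-forming classes can be set side by side. Of 21 members that passed the filter in both, 4 were higher in both (19.0%), Sema3d, Sema4d, Sema7a and Nrp2, against 1.61% of all 7076 such genes. Lower in both were 6 (28.6%), Plxnd1, Efna2, Efna4, Epha4, Ephb3 and Ephb4, against 4.41% of all. Both classes come from the same library and share bone transcripts, with Bglap at 15883 CPM in odontoblast-like and 71614 CPM in osteoblast-like cells. Sema3d had 98.1 and 114 CPM in these classes, Sema7a 24.2 and 46.7 CPM, Sema4d 47.6 and 66.9 CPM and Nrp2 222 and 674 CPM. In Cxcl12-creER P6 the osteoblast-like class of 89 cells had 61.2 CPM of Sema3d (32.6 to 105), from 13 UMIs, and 367 CPM of Nrp2 (290 to 458), the highest level of either gene among that library's named classes of at least 50 cells.

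The pulp-to-ligament comparison was repeated in Cxcl12-GFP P6. Of 29 members that passed the filter, 10 were past 2-fold (34.5%), 3 higher and 7 lower in pulp-like cells. The share was 13.2% among all 8504 genes tested, 6.94% higher and 6.27% lower, and the median log2 ratio was -0.01 for the members and 0.08 for all genes. Plxnd1 had 89.2 CPM in pulp-like and 13.4 CPM in ligament-like cells, 6.63-fold higher (5.67 to 7.79). Sema5a had 97.5 CPM against 15.8 CPM, 6.16-fold higher (5.33 to 7.15), and Sema6d 21.1 CPM against 9.31 CPM, 2.27-fold higher (1.84 to 2.81). In pulp-like cells Sema3c had 5.14 CPM, against 34.1 CPM in ligament-like cells, 6.63-fold lower (5.17 to 8.61). Sema3a had 8.94 CPM against 49.4 CPM, 5.52-fold lower (4.56 to 6.73). The A-type pair stood on the ligament side here too, with Epha3 at 43.3 CPM against 179 CPM (4.14-fold lower, 3.78 to 4.53) and Efna5 at 25.7 CPM against 92.3 CPM (3.59-fold lower). Nrp2 had 22.6 CPM against 68.7 CPM (3.04-fold lower), Efnb2 10.5 CPM against 30.8 CPM (2.94-fold lower, 2.43 to 3.57) and Epha4 16.8 CPM against 40.1 CPM (2.40-fold lower). Of 15 alternatives, Nrp2 was past 2-fold in 11, Sema6d in 10, Efnb2 in 9 and Epha4 in 8, whereas Plxnd1, Sema5a, Sema3c, Sema3a and Efna5 were in all 15. Epha3 and Efnb2 had log2 ratios of 0.28 and 0.07 when the mitochondrial limit was 10%, and Epha3 0.27 under another naming rule.

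Of the 23 members that passed the filter at both ages, 2 were higher in pulp-like cells at both, Sema5a and Plxnd1, and 6 were lower at both, Sema3c, Nrp2, Efna5, Efnb2, Epha3 and Epha4, while none was past 2-fold in opposite directions. Over all 7612 genes that passed in both, 4.83% were higher at both ages, 2.92% lower at both and 0.525% opposite, and the members' shares were 8.70%, 26.1% and 0%. Sema3e did not pass the filter at P6 and leaned the other way there, with 4.36 CPM in pulp-like cells (3.35 to 5.59) and 9.38 CPM in ligament-like cells (7.82 to 11.2) of Cxcl12-GFP P6. Cxcl12-creER P6 also had both classes, but its 87 pulp-like cells, named from the apical papilla list, gave few counts of these genes. There Sema5a had 18.6 CPM in pulp-like cells (3.83 to 54.2, from 3 UMIs) and 41.4 CPM in ligament-like cells (30.1 to 55.5). Plxnd1 had 12.4 CPM (1.5 to 44.7, from 2 UMIs) against 18.8 CPM (11.5 to 29.0), so neither was higher in pulp-like cells of that library, with overlapping intervals. The 6 lower genes had fewer CPM in pulp-like than in ligament-like cells there too, from 1 to 40 UMIs each on the pulp side. Among them were Epha3 (247 and 373 CPM), Epha4 (18.6 and 111 CPM) and Efnb2 (12.4 and 60.2 CPM). Cluster 10 gave 90.0% of the UMIs of that ligament-like class, and in its other cluster Epha3 had fewer CPM than in pulp-like cells. The share of all genes lower in pulp-like cells of that library was not counted. In Cxcl12-GFP P6, mural markers summed to 288 CPM in pulp-like and 1668 CPM in ligament-like cells and connective tissue fibroblast markers to 27.2 and 215 CPM, and their part was not tested. In that library cluster 4, named from the apical papilla list, differed from the other pulp-like clusters in several of these genes. Epha3 had 103 CPM in cluster 4 and 8.03 and 6.50 CPM in clusters 5 and 6, and Nrp2 48.0 CPM against 5.67 and 8.67 CPM. Sema5a had 16.1 CPM in cluster 4 against 132 and 160 CPM, which is the order seen in pulp-like cluster 16 at P25. Of the 12 Slit, Robo and netrin genes that passed the filter at P6, 5 were higher and 2 lower, among them Flrt3 at 129 CPM in pulp-like and 15.3 CPM in ligament-like cells and Ntn1 at 1.2 CPM against 31.0 CPM. Of 12 semaphorin partners 1 was higher and 1 lower, and of 12 Eph and ephrin partners 4 were higher and none was lower.

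**Figure D4:**
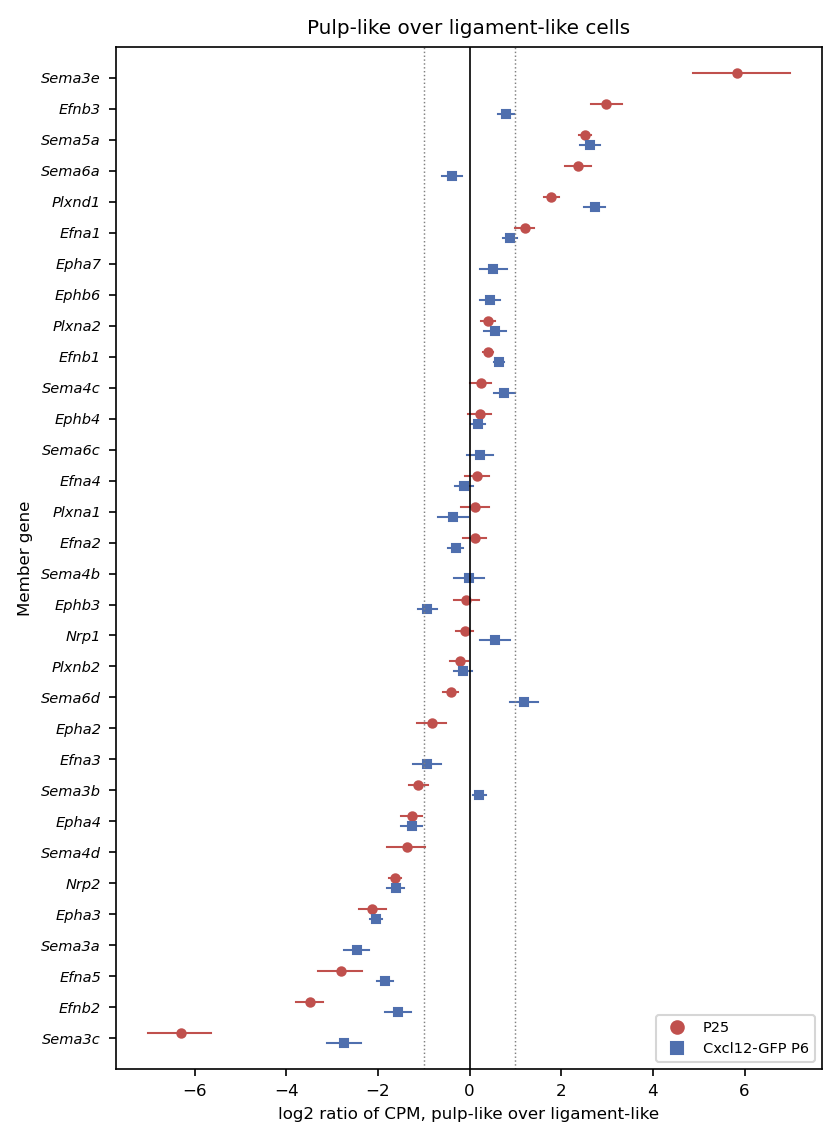
Log2 ratio of CPM, pulp-like over ligament-like (horizontal axis), for the 32 members that passed the filter in at least 1 library (rows), with circles for P25, squares for Cxcl12-GFP P6, bars for exact 95% intervals of counting error and dotted lines at 2-fold. Sema5a and Plxnd1 lie right of the upper line at both ages and Sema3c, Nrp2, Efna5, Efnb2, Epha3 and Epha4 left of the lower one.

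P25 was compared with Cxcl12-GFP P6 within each class. The libraries differ in age, sorted reporters, genotype and library, so these cannot be told apart in what follows, and the barcode difference given above lies in the same comparison. In pulp-like cells 28 members passed the filter and 10 were past 2-fold (35.7%), 5 higher and 5 lower at P25, against 18.0% of all 8641 genes tested, 9.64% higher and 8.39% lower. The median log2 ratio was -0.06 for the members and -0.14 for all genes tested. Sema3e had 20.6 CPM at P25 and 4.36 CPM in Cxcl12-GFP P6, 4.73-fold higher (3.51 to 6.43). Nrp1 had 35.4 CPM against 14.3 CPM (2.48-fold higher) and Nrp2 62.0 CPM against 22.6 CPM (2.74-fold higher), but Nrp2 rests on P25 cluster 16, without which its log2 ratio was -0.26. Sema6d had 50.6 CPM against 21.1 CPM (2.40-fold higher) and Plxna2 57.2 CPM against 25.9 CPM (2.21-fold higher). At P25 Efna5 had 4.94 CPM, against 25.7 CPM in Cxcl12-GFP P6, 5.20-fold lower (3.75 to 7.40). Ephb4 had 23.1 CPM against 52.4 CPM (2.27-fold lower) and was past 2-fold under all 16 alternatives, and Ephb6 had 11.7 CPM against 29.6 CPM (2.53-fold lower). Sema3b had 27.2 CPM against 59.3 CPM, 2.18-fold lower, which held in 4 of the 16. Nrp1, Sema6d, Plxna2, Efna5 and Ephb6 were past 2-fold in 13 of the 16, Nrp2 in 14, Sema3e in 15 and Epha3 in 12. Epha3 had 12.7 CPM against 43.3 CPM (3.40-fold lower), with log2 ratios of 0.09 to 0.74 under 3 alternatives, among them leaving out cluster 4 of Cxcl12-GFP P6.

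In ligament-like cells 30 members passed the filter and 17 were past 2-fold (56.7%), 7 higher and 10 lower at P25. The joined class differs in make-up between the libraries: all 4 P25 clusters were named from the periodontal ligament list and both Cxcl12-GFP P6 clusters from the dental follicle list. This follows partly from the naming rule, which left clusters without a clear lead unnamed. Cluster 9 of Cxcl12-GFP P6 (286 cells) and cluster 4 of P25 (311 cells) scored best on the ligament list. Cluster 8 of P25 (246 cells) scored best on the follicle list, and none of these is in the class. Over all 8187 genes tested the share was 26.9%, 9.20% higher and 17.7% lower, and the median log2 ratio was -0.33, against 0.17 for the members. Because the median gene is shifted, the split depends on scaling: centred on the median gene, 10 members were higher and 7 lower. Sema6d had 67.6 CPM at P25 and 9.31 CPM in Cxcl12-GFP P6, 7.26-fold higher (6.05 to 8.77). Efnb2 had 133 CPM against 30.8 CPM, 4.32-fold higher (3.90 to 4.79), and Nrp1 38.2 CPM against 9.68 CPM, 3.95-fold higher. Epha2 had 21.9 CPM against 4.66 CPM, 4.70-fold higher. Those 4 were past 2-fold under all 16 alternatives. Sema3c had 183 CPM at P25 against 34.1 CPM (5.38-fold higher, 4.89 to 5.93), which is carried by P25 cluster 0, since without that cluster its log2 ratio was -0.11. Nrp2 had 192 CPM against 68.7 CPM (2.79-fold higher) and Plxna2 43.3 CPM against 17.7 CPM (2.45-fold higher).

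Lower in P25 ligament-like cells was Sema3a, at 2.97 CPM against 49.4 CPM in Cxcl12-GFP P6, 16.6-fold lower (13.1 to 21.4). Efnb3 had 4.21 CPM against 31.3 CPM, 7.44-fold lower (5.99 to 9.30). Among the A-type ephrins, 4 were lower, with Efna3 at 3.65 CPM against 19.2 CPM, Efna5 at 34.7 CPM against 92.3 CPM, Efna1 at 19.2 CPM against 40.1 CPM and Efna2 at 21.6 CPM against 44.6 CPM, of which Efna1 and Efna2 were past 2-fold in 10 and 9 of 16 alternatives. In family counts 5 of 8 ephrins were lower and 1 was higher, and 3 of 7 Eph receptors were lower and 1 was higher. Epha3 had 55.3 CPM against 179 CPM (3.24-fold lower), Ephb4 19.7 CPM against 46.1 CPM (2.34-fold lower) and Ephb6 4.89 CPM against 21.7 CPM (4.44-fold lower). Sema6a had 6.82 CPM against 30.1 CPM, 4.41-fold lower. Cycling markers summed to 14.2 CPM at P25 and 38.6 CPM in Cxcl12-GFP P6 in this class, ligament markers to 21950 CPM and 2034 CPM, follicle markers to 188 CPM and 1404 CPM and mural markers to 320 CPM and 1668 CPM, and their part in these values was not tested. In both classes Sema6d, Plxna2, Nrp1 and Nrp2 were higher at P25 and Efna5, Epha3, Ephb4 and Ephb6 lower, from the same pair of libraries. The share of all genes past 2-fold the same way in both classes was not counted. Nrp2 and Epha3 turned direction in pulp-like cells under some alternatives. Among the partner lists in pulp-like cells, 2 of 10 Slit, Robo and netrin genes, 4 of 15 semaphorin partners and 4 of 15 Eph and ephrin partners were higher at P25, and 1, 6 and 0 were lower. In ligament-like cells 3 of 11, 4 of 14 and 3 of 13 were higher in the same order of lists, and 1, 0 and 1 were lower.

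**Figure D5:**
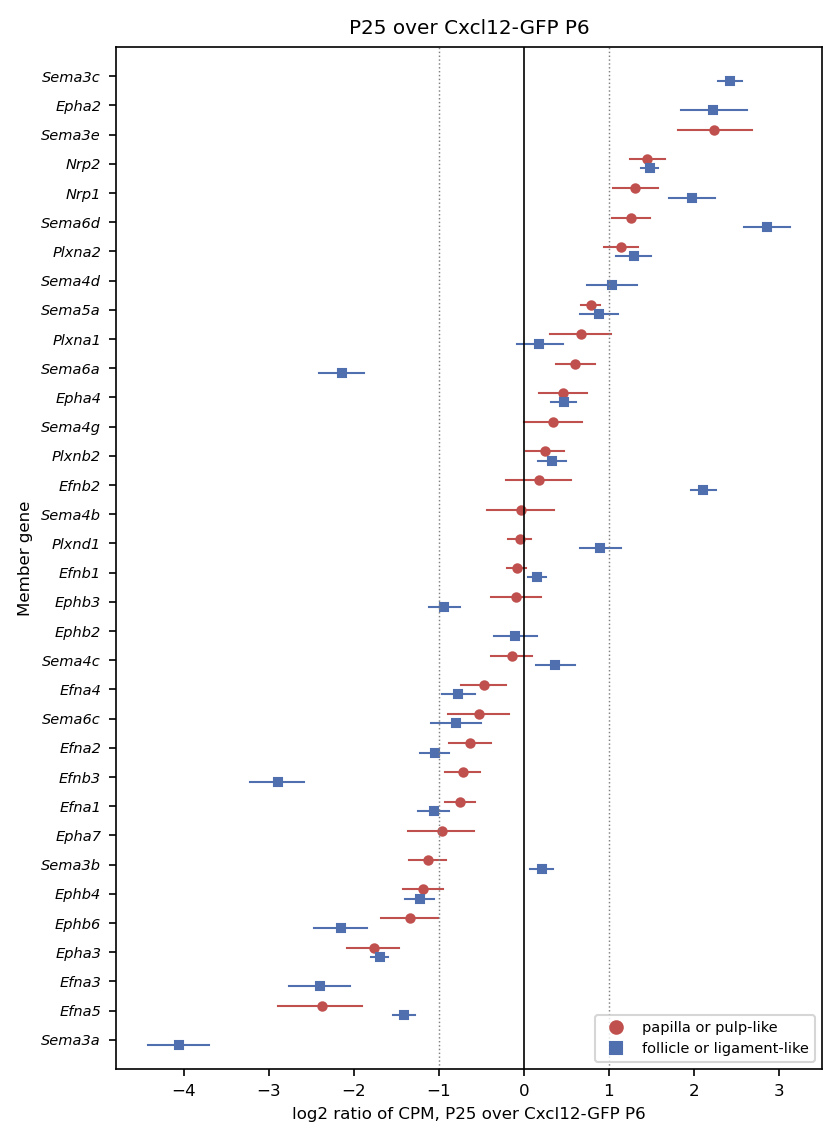
Log2 ratio of CPM, P25 over Cxcl12-GFP P6 (horizontal axis), for the 34 members that passed the filter in at least 1 class (rows), with circles for pulp-like cells, squares for ligament-like cells, bars for exact 95% intervals of counting error and dotted lines at 2-fold. Sema3a lies furthest left, in ligament-like cells, and Sema6d, Plxna2, Nrp1 and Nrp2 lie right of the upper line in both classes. The share of all genes that do so was not counted.

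At P6 the ligament-like cells of Cxcl12-GFP P6 were compared with the 111 of Cxcl12-creER P6. The libraries differ in sorted reporter, genotype, depth, feature list and library, so these cannot be told apart here. The barcode difference given earlier lies in this comparison too. CPM here are scaled to the genes found in both feature lists and so run slightly above the class levels given earlier. Of 32 members that passed the filter, 11 were past 2-fold (34.4%), 2 higher and 9 lower in Cxcl12-GFP P6, against 21.7% of all 8682 genes tested, 7.65% higher and 14.1% lower. The median log2 ratio was -0.36 for the members and 0.03 for all genes. With cells weighted equally, 3 were higher and 4 lower, which is 22.6% of 31 members against 26.4% of all genes, so the members' share was then below that of all genes. Without cluster 1 of Cxcl12-GFP P6 it was 20.6% against 22.8%. Sema3b had 51.4 CPM in Cxcl12-GFP P6 and 13.3 CPM in Cxcl12-creER P6, 3.87-fold higher (2.29 to 7.12), and Efna5 had 93.0 CPM against 36.0 CPM, 2.58-fold higher. Plxna2 had 17.8 CPM against 88.0 CPM (4.95-fold lower, 3.85 to 6.32), Epha4 40.4 CPM against 112 CPM (2.76-fold lower) and Nrp2 69.2 CPM against 153 CPM (2.22-fold lower). Epha3 had 180 CPM in Cxcl12-GFP P6 against 376 CPM in Cxcl12-creER P6, 2.08-fold lower. Also lower were Sema5a, Epha7, Plxna3, Sema3f and Sema4d, at log2 ratios of -1.33, -1.18, -1.15, -1.13 and -1.01. In the same order they were past 2-fold in 8, 7, 9, 7 and 7 of 12 alternatives. Of 12 alternatives Efna5 and Plxna2 were past 2-fold in 11, Sema3b and Epha4 in 10, Nrp2 in 9 and Epha3 in 8. Cluster 10 gave 40.5% of the Cxcl12-creER P6 cells of this class and 90.0% of their UMIs. Without it the log2 ratios were 0.85 for Plxna2, 0.50 for Epha4, 0.07 for Nrp2, 0.79 for Epha3, 0.70 for Sema5a and 0.056 for Sema3f. Cluster 10 had 403 CPM of Epha3 and 96.2 CPM of Plxna2, against 103 and 9.36 CPM in cluster 4, the other cluster of the class. Enamel epithelium markers summed to 93.5 CPM in Cxcl12-GFP P6 and 904 CPM in Cxcl12-creER P6 ligament-like cells. In the same order, apical papilla markers summed to 1331 and 3225 CPM, osteoblast markers to 559.6 and 1678 CPM and cycling markers to 38.85 and 104 CPM. Ligament markers ran the other way, with 2049 and 1032 CPM. So did mural markers, with 1680 and 785 CPM, and connective tissue fibroblast markers, with 216 and 54.0 CPM. The part of these lists in the ratios was not tested. None of the partner genes was past 2-fold higher in Cxcl12-GFP P6, while 4 of 13 Slit, Robo and netrin genes, 5 of 14 semaphorin partners and 2 of 13 Eph and ephrin partners were lower.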

How the data were processed

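UMI counts per gene and barcode were deposited by the authors for 3 libraries, 1 per group, as raw counts from droplet 3' sequencing with about 10000 cells loaded, per the labels' protocols. The submitters' processing notes list Cell Ranger, Seurat and the mm10 build. Per the file headers, the Cell Ranger version was 3.1.0 for P25 and 6.0.0 for Cxcl12-creER P6. The sources used here give no filters or aligner settings. The feature lists held 28006 genes for P25 and Cxcl12-GFP P6 and 32286 for Cxcl12-creER P6. All 50 member genes were matched by identifier to GENCODE M21 for coordinates.

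Barcodes under 500 genes (741 at P25, 3 for Cxcl12-GFP P6, 536 for Cxcl12-creER P6) and then those over 15% mitochondrial UMIs (295, 8 and 24) were left out. Doublet scores came from 2 simulated doublets for each cell. Cells with the top scores were removed at 0.8% per 1000 cells (256, 452 and 10 cells), so the number follows from the rate. Each library was clustered alone (Leiden, resolution 1.0, 2000 variable genes in 20 bins of mean expression, 30 principal components, 15 neighbours), with the member genes, 3 lists of guidance genes, Cxcl12, reporters, mitochondrial and ribosomal genes left out of the variable genes. Work was done in Python 3.11.15 with matplotlib 3.10.9, leidenalg 0.10.2, igraph 0.11.9, scikit-learn 1.9.0, scipy 1.17.1, numpy 2.4.6 and pandas 2.3.3, and the counting steps were tested on simulated data.

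Clusters took the best of 23 marker lists (155 markers) given at least 3 markers at 1.5-fold over the median of the other clusters and in 10% of cells, a mean log2 score of 0.9 with 10 CPM added, a lead of 0.3 and no majority of another list's markers among the 10 leading genes. The follicle and ligament lists were joined, as were the papilla and pulp lists. The rule was changed after clusters were seen, partly because the version used keeps the odontoblast-like name of P25 cluster 12, and 2 earlier versions are given as alternatives. Clusters led by chondrocyte markers were called Col9a1-high where Col2a1 was below 1000 CPM. The member genes and gene lists were chosen with earlier results of these data known.

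Levels are CPM of a class's summed counts with exact Poisson 95% intervals, shares have Clopper-Pearson intervals, and ratios have exact conditional binomial intervals. All cover counting error only. There was 1 library per group, so no test across samples was possible and cells were given no p-value. The 7 comparisons between classes of at least 50 cells used a 2-fold threshold on the log2 ratio with 1 CPM added, among genes with a mean of 10 CPM and 20 UMIs over both classes. Up to 10 members on each side past 2-fold are named, the members with 50 CPM in a class are described by class, and up to 4 genes on each side of the other lists. Motifs were sought in RefSeq promoter windows of GRCm38.p6. The alternatives were another pseudocount, filter, resolution, mitochondrial limit, doublet treatment, naming, scaling and cell weighting, and leaving out each cluster.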

Additional observations from a re-analysis of the deposited data

How the results depend on the processing

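The number of members past 2-fold stayed within 1.5 times the value reported except under the following. In the P25 comparison of pulp-like with ligament-like cells (14 members) it was 25 of 49 with no filter (51.0%, against 17.6% of all genes), 6 of 26 with doublets kept (23.1%, against 12.1%) and 7 of 26 with the best marker list alone (26.9%, against 10.5%). Keeping doublets and the best list alone gave pulp-like classes of 1171 and 1186 cells, of which 755 and 758 were pulp-like in the naming used. With no filter it was 27 of 49 (55.1%, against 13.7%) in osteoblast-like against ligament-like cells (15 members) and 17 of 50 (34.0%, against 12.5%) in pulp-like against ligament-like cells of Cxcl12-GFP P6 (10 members), where it was 6 of 30 (20%, against 11.3%) with the best marker list alone. Between Cxcl12-GFP P6 and Cxcl12-creER P6 ligament-like cells (11 members) it was 7 with a pseudocount of 5 CPM (21.9%, against 16.1%), with the mean of per-cell CPM (22.6%, against 26.4%) and without cluster 1 of Cxcl12-GFP P6 (20.6%, against 22.8%). The number of members at 50 CPM in a class, 34, ranged from 32 to 36 over 56 settings.

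Of 1450 log2 ratios of named members under the alternatives, 826 stayed within their counting interval, 604 moved beyond it in the same direction and 20 turned in direction. In P25 pulp-like against ligament-like cells these were Epha3 at resolution 0.5 (log2 ratio 0.31), with doublets kept (0.17) and with the best marker list alone (0.17), Sema6a without cluster 16 (-1.50) and Sema3b without cluster 0 (0.13). In odontoblast-like against pulp-like cells it was Sema6d with the best marker list alone (0.35). In Cxcl12-GFP P6 pulp-like against ligament-like cells they were Epha3 (0.28) and Efnb2 (0.068) at a mitochondrial limit of 10%, which gave 2709 pulp-like cells, and Epha3 with leading genes ranked at 10 CPM (0.27). Between P25 and Cxcl12-GFP P6 they were, in pulp-like cells, Epha3 at resolution 0.5 (0.085), with doublets kept (0.43) and without Cxcl12-GFP P6 cluster 4 (0.74) and Nrp2 without P25 cluster 16 (-0.26), and in ligament-like cells Sema3c without P25 cluster 0 (-0.11). Between the P6 libraries, leaving out Cxcl12-creER P6 cluster 10 gave 0.85 for Plxna2, 0.50 for Epha4, 0.70 for Sema5a, 0.07 for Nrp2, 0.056 for Sema3f and 0.79 for Epha3. Apart from settings that leave out cells by construction, the cause was not tested.

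Ranking leading genes at 10 CPM and scoring markers at 1 CPM were chosen after seeing the data. The first leaves P25 cluster 12 unnamed and the second leaves 45 ligament-like cells in Cxcl12-creER P6, so the odontoblast-like comparison and that between the P6 libraries could not be run under them. Leaving out a cluster could not be run where under 50 cells would be left or where the class was 1 cluster. No paired analysis was possible because each group has 1 library and no result comes from a test across samples. Depth limits Cxcl12-creER P6 most, at a median of 1464 UMIs per cell, where a level of 61.2 CPM of Sema3d rested on 13 UMIs.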
